A study of Homo sapiens with 28 samples.

Results

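The Kruppel-like factors described here are 10 genes, KLF2, KLF3, KLF4, KLF5, KLF6, KLF7, KLF9, KLF10, KLF11 and KLF13, taken by symbol from the 19662 gene symbols of each expression table. The study asked how ONECUT2, a homeobox transcription factor, shapes the response of prostate cancer cells to low oxygen, and the comparisons below ask where KLF6 and its family stand in that response. The 16 RNA-Seq libraries come from a pair of established human prostate cancer cell lines, with 4 groups of 2 libraries in each. PC3, a line with small cell neuroendocrine features, was transfected with control siRNA (siCtrl) or with siRNA against ONECUT2 (siOC2), and kept in normoxia or in hypoxia at 0.2% O2. In siOC2, replicates 1 and 2 are different siRNA sequences, so their spread holds the difference between the siRNAs as well as that between cultures. LNCaP, an adenocarcinoma line, carried an empty vector (EV) or Flag-tagged ONECUT2 (OC2), under the same normoxia and hypoxia. Expression of the transgene was forced by a vector and is not the endogenous gene. The labels do not say whether replicates of the other groups were separate cultures, so p-values measure the spread between these libraries only.

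Kruppel-like factors bind GC-rich and CACCC sequences through zinc fingers at the C terminus, and the N terminus decides which cofactors they bring. KLF2, KLF4, KLF5, KLF6 and KLF7 belong to the branch that contacts acetyltransferases and mostly activates. KLF3 recruits the corepressor CtBP, and KLF9, KLF10, KLF11 and KLF13 contact the corepressor SIN3A. In prostate, KLF6 has been studied as a tumour suppressor, KLF5 as a factor of basal epithelium and KLF4 as a regulator of differentiation.

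The sequences before the annotated starts of KLF6 and KLF4 are shown because these were the members that passed the call (a 2-fold change with an unadjusted P under 0.05) in hypoxia in control PC3 cells. Both are RefSeq promoters of GRCh38.p14 on the minus strand, KLF6 at chr10:3785282-3785459 and KLF4 at chr9:107489770-107490019. The KLF6 run stops 73 bases before the start, since the rest lies inside another annotated transcript, and the KLF4 run ends at the base before the start. Capitals mark ACGTG or GCGTG (the core bound by hypoxia-inducible factors), CACCC and CCAAT on either strand.
KLF6: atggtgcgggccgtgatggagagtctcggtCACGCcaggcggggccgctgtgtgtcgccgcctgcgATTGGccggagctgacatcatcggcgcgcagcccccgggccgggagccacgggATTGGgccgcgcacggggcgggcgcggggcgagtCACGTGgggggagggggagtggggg
KLF4: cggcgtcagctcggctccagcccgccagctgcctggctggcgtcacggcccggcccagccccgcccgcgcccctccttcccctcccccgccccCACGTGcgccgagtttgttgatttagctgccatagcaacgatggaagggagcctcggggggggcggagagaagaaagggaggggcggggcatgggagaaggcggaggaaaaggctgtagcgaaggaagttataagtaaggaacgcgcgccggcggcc

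In the 250 bases before the start, 9 of the 13 windows of the 8 members with a window held ACGTG or GCGTG, against 43.2% of the 35116 RefSeq windows of that length. Those 9 windows belong to 5 members, since KLF7 supplies 4 of them and KLF11 supplies 2. KLF6 and KLF4 each hold the palindrome CACGTG, which contains ACGTG on both strands and so counts as overlapping matches. It begins 97 bases before the start of KLF6 and 157 bases before that of KLF4. KLF7 and KLF11 also hold CACGTG, 186 and 182 bases before a start, which makes 4 of 13 member windows against 6.34% of all windows. CACGTG was looked up after it had been seen in these windows. CACCC was present in 6 of the 13 windows (54.7% of all windows), GGGCGG in 8 (42.6%) and CCAAT in 6 (32% of all windows). The letters ATCAAT or ATCGAT, of the kind that ONECUT factors bind, were in 0 of the 13 windows and in 6.19% of all windows. The runs printed for KLF6 and KLF4 are 76.4% and 69.2% G or C, and the windows they are set against were not matched for base content. These matches are letters in a window and were not measured as binding. KLF3 and KLF10 had no window.

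Levels are given in RPKM, read counts scaled by gene length and by library size, so they can be set side by side between genes. Sequencing depth is known only relative to 1 library per line, from the step between low RPKM values. It ran from 0.348 to 1.15 in PC3, where siCtrl hypoxia replicate 2, siCtrl normoxia replicate 1 and siOC2 hypoxia replicate 1 were shallowest (0.382, 0.418 and 0.348), and from 0.662 to 1.21 in LNCaP. The median SD between replicates on the log2 scale was 0.473 in siOC2 hypoxia, 0.294 in siOC2 normoxia and 0.152 and 0.183 in the siCtrl groups, against 0.0725 to 0.142 in LNCaP. All 8 hypoxia response genes had a higher mean in hypoxia in both PC3 arms, and 7 were called higher in each. In LNCaP 7 of the 7 tested were called higher in both arms, and CA9 among them reached 1 RPKM in hypoxia libraries only. Of all genes, 3.86% were called in hypoxia in siCtrl, 3.46% in siOC2, 7.95% in EV and 6.84% in OC2. ONECUT2 was 1.77 and 1.16 RPKM in siCtrl normoxia, 0.65 and 0.55 in siCtrl hypoxia, 0.28 and 0.20 in siOC2 normoxia and 0.13 and 0.21 in siOC2 hypoxia, so each siOC2 library lay below every siCtrl library. For siCtrl over siOC2 it was called in normoxia (log2 difference 2.18), and it entered the fit only through the siCtrl normoxia libraries. It was not called in hypoxia (1.39), where the siCtrl libraries were also under 1 RPKM. The LNCaP table gives no ONECUT2 value in the OC2 libraries, and the overexpression could not be checked there. In EV it was 2.89 and 7.86 RPKM in normoxia and 11.5 and 3.09 RPKM in hypoxia, so replicates differed widely. KLK3, which encodes prostate-specific antigen, was listed at 0 in all PC3 libraries and was 1842 to 3997 RPKM in LNCaP, whereas CD44 was 171 to 661 RPKM in PC3 and no more than 0.75 RPKM in LNCaP. VIM, taken as a PC3 gene, was present in LNCaP too, at 23.6 to 58.2 RPKM.

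In control PC3 cells in normoxia KLF13 was the most abundant member, at 32.5 ± 3.34 RPKM (SD, n = 2). KLF5 (26.5 RPKM), KLF6 (23.2 RPKM) and KLF7 (20.4 RPKM) followed, then KLF10, KLF3, KLF11 and KLF4, with KLF9 and KLF2 under 1 RPKM. The libraries of KLF6 and KLF7 overlapped, as did those of KLF3 and KLF11, and the other neighbours in this order did not. In LNCaP with the empty vector in normoxia KLF13 was again first, at 52.1 ± 0.353 RPKM (SD, n = 2), and KLF9 (18.3 RPKM) and KLF10 (15.4 RPKM) came next. KLF3, KLF5 and KLF6 followed with overlap between neighbours, then KLF7, then KLF11 and KLF4, whose libraries overlapped, and KLF2 was last. KLF6 thus ranked 3 of 10 in PC3 and 6 of 10 in LNCaP. The widest contrast between the lines was KLF9, a glucocorticoid-responsive member, which lay between 0.56 and 1.23 RPKM over the PC3 libraries and between 14.4 and 18.9 RPKM over those of LNCaP. The lines are separate tables, so these levels were set side by side without a test.

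**Figure D1:**
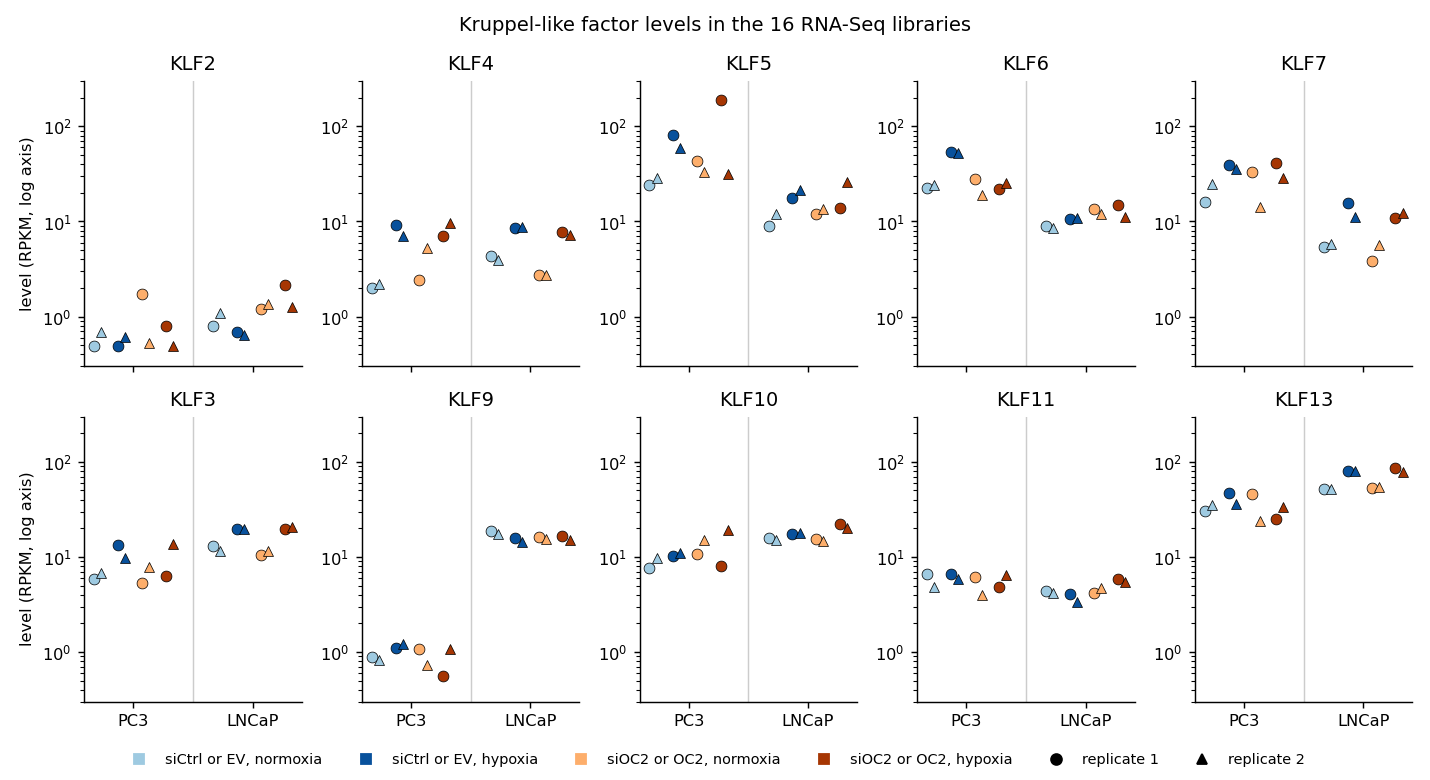
Level of each of the 10 Kruppel-like factors in RPKM (vertical log axis) in the 8 PC3 and 8 LNCaP libraries (horizontal axis, by cell line), coloured by group, with circles for replicate 1 and triangles for replicate 2. KLF9 sits near 1 RPKM in PC3 and near 16.3 RPKM in LNCaP, and KLF5 reaches 190.2 RPKM in 1 siOC2 hypoxia library.

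Hypoxia was compared with normoxia in control PC3 cells first. All 9 members tested had a higher mean in hypoxia, with a median log2 change of 0.85 against -0.07 over all 12214 genes, and KLF4 and KLF6 passed the call, a fold change over 2 with an unadjusted P under 0.05 in limma. Of all genes tested, 3.86% were called in this comparison. The members had been chosen with earlier results of these data known. Of the other KLF genes 2 could be tested, and KLF12 was higher (0.32) and KLF16 lower (-0.67) in hypoxia. KLF2 reached 1 RPKM in 1 PC3 library, where 2 were required, and was not tested in PC3. None of the members had an adjusted p under 0.05, which 33 of all genes had together with the fold change.

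KLF6 (chr10:3818188-3827473, minus strand, GRCh37) was 22.3 and 24.1 RPKM in siCtrl normoxia and 53.3 and 52.3 RPKM in siCtrl hypoxia. The hypoxia libraries were both above the normoxia libraries, and replicates lay within 1.08-fold of each other. KLF6 rose 2.27-fold, by 1.18 on the log2 scale (SE 0.28), with adjusted p = 0.218 in limma. It kept the call without any 1 library, with a log2 change of 1.13 to 1.24. In bulk RNA a change in every cell and a change in the share of cells that express a gene cannot be told apart.

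KLF4 (chr9:110247133-110252763, minus strand, GRCh37), one of the factors used to reprogram cells to pluripotency, was 1.98 and 2.19 RPKM in siCtrl normoxia and 9.18 and 7.10 RPKM in siCtrl hypoxia. The groups did not overlap. KLF4 rose 3.75-fold (log2 change 1.91, SE 0.41), with adjusted p = 0.170 in limma. Its exons are overlapped over 9.75% of their length by a gene on the other strand, from which the stranded library kit can separate it only if strand was used in counting.

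Of the other activators, KLF5 and KLF7 were higher in both hypoxia libraries. KLF2 was 0.491 and 0.693 RPKM in normoxia and 0.495 and 0.615 RPKM in hypoxia, which overlapped. KLF5 was 24.4 and 28.6 RPKM in normoxia and 81.8 and 59.4 RPKM in hypoxia, a log2 change of 1.40 (SE 0.69, adjusted p = 0.730 in limma). KLF7, known from neurons, was 16.1 and 24.8 RPKM against 39.6 and 35.3 RPKM, a log2 change of 0.90 (SE 0.43, adjusted p = 0.718 in limma). Neither passed the call when all 8 libraries shared 1 estimate of the spread. KLF5 passed it, at the same log2 change of 1.40, when only the 4 libraries compared entered the fit, and also without siOC2 hypoxia replicate 1 or without siOC2 hypoxia replicate 2.

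In the repressor branches KLF3 had a log2 change of 0.85 (SE 0.42), and the SIN3A-binding members KLF9, KLF10, KLF11 and KLF13 had 0.42, 0.28, 0.12 and 0.35. The normoxia and hypoxia libraries of KLF11 overlapped, and those of the other 8 tested members did not. Of all genes tested, 55% had libraries that did not overlap in this comparison. KLF11 was -0.10 without siCtrl normoxia replicate 2.

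After silencing of ONECUT2, 6 of the 9 members had a higher mean in hypoxia, with a median log2 change of 0.17 against -0.22 over all genes, and KLF4 was the 1 member called. KLF10, at -0.03, was 0.11 with the libraries scaled to the same upper quartile. In this comparison 3.46% of genes were called. KLF4 was 2.43 and 5.31 RPKM in siOC2 normoxia and 7.01 and 9.59 RPKM in siOC2 hypoxia, without overlap, a log2 change of 1.17 (SE 0.41, adjusted p = 0.719 in limma). It was higher in hypoxia with either siRNA, by 1.49 with the first and 0.84 with the second on the log2 scale. The call was lost without siOC2 normoxia replicate 1 (log2 change 0.62), without siOC2 hypoxia replicate 2 (0.94), with a pseudocount of 1 (0.98) and when only these 4 libraries were fitted (1.17, with an unadjusted P over 0.05).

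KLF6 was not called under the siRNAs. Its level was 28.2 and 19.0 RPKM in siOC2 normoxia and 21.7 and 25.2 RPKM in siOC2 hypoxia, so the groups overlapped. The log2 change was 0.01 (SE 0.28), with a 95% interval of -0.62 to 0.65, and it was -0.38 with the first siRNA and 0.40 with the second. None of the siOC2 libraries reached the 52.3 RPKM of the lower siCtrl hypoxia library.

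KLF5 showed the widest gap between the siRNAs. With the first siRNA it was 42.8 RPKM in normoxia and 190.2 RPKM in hypoxia, and with the second 32.8 and 31.7 RPKM. The siOC2 hypoxia replicates thus differed 6.0-fold, and the fitted log2 change of 1.05 (SE 0.69) became -0.24 without replicate 1 and 2.34, past the call, without replicate 2. VIM also separated these libraries, at 30.2 RPKM with the first siRNA and 165 RPKM with the second in hypoxia, and its part in the KLF5 value was not tested. KLF3 changed by 0.22 with the first siRNA and 0.80 with the second. It passed the call without siOC2 hypoxia replicate 1 (log2 change 1.07) and had -0.048 without replicate 2. KLF7 changed by 0.29 and 0.99, and passed the call without siOC2 normoxia replicate 1 (1.25). KLF13, KLF10, KLF11 and KLF9 went down with the first siRNA and up with the second, between -0.87 and 0.71 on the log2 scale, and none was called.

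**Figure D2:**
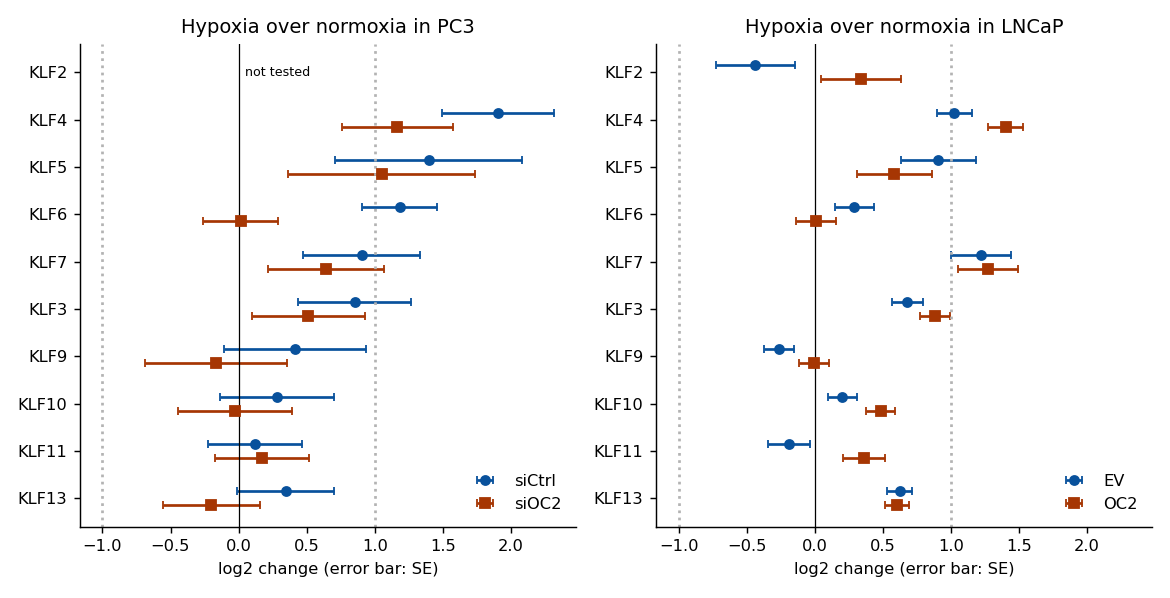
Fitted log2 change of each member in hypoxia over normoxia (horizontal axis, error bars are the SE) in PC3 with siCtrl or siOC2 and in LNCaP with EV or OC2, with dotted lines at a 2-fold change. In PC3 KLF6 is at 1.18 with siCtrl and 0.01 with siOC2, while KLF4 is above 1 in all 4 arms.

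Averaged over siCtrl and siOC2, KLF4 and KLF5 were called in hypoxia, with log2 changes of 1.54 (SE 0.29, adjusted p = 0.0729 in limma) and 1.22 (SE 0.49, adjusted p = 0.316 in limma). This average was called for 3.65% of genes. All 9 members had a higher mean, with a median of 0.60 against -0.15 over all genes, but KLF9, KLF10, KLF11 and KLF13 took either sign when 1 library was left out. The KLF5 call held in 1 of the 8 fits that left out a library, the one without siOC2 hypoxia replicate 2 (log2 change 1.87). Without the others it was lost: 1.17 and 1.28 without siCtrl normoxia replicates 1 and 2, 1.11 and 1.34 without siCtrl hypoxia replicates 1 and 2, 1.32 and 1.13 without siOC2 normoxia replicates 1 and 2, and 0.58 without siOC2 hypoxia replicate 1. KLF7 was called without siOC2 normoxia replicate 1 (1.07).

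The effect of ONECUT2 in PC3 was read as siCtrl over siOC2, so that a positive value marks a gene that was higher where ONECUT2 was kept. These contrasts share their libraries with those of hypoxia above. In normoxia 0 of 9 members were called by limma, none had an unadjusted P under 0.05, and 5.21% of genes were called. The median log2 difference of the members was -0.06 against -0.13 over all genes, and KLF6 was at 0.00 (95% interval -0.63 to 0.64). KLF4 had the lowest value, -0.76 (SE 0.41, adjusted p = 0.625 in limma), with siCtrl libraries at 1.98 and 2.19 RPKM below siOC2 libraries at 2.43 and 5.31 RPKM. It passed the call without siOC2 normoxia replicate 1, at -1.31.

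In hypoxia KLF6 was the 1 member called, and 7.5% of genes were called. The siCtrl libraries, at 53.3 and 52.3 RPKM, were both above the siOC2 libraries, at 21.7 and 25.2 RPKM, and the ratio was 2.25 (log2 difference 1.17, SE 0.28, 95% interval 0.54 to 1.80, adjusted p = 0.149 in limma). KLF6 kept this call without any 1 library, with values from 1.06 to 1.28. The other members lay between -0.24 and 0.53, and KLF9 and KLF13 were the other members whose libraries did not overlap, which was so for 38.4% of all genes. KLF5, at -0.16, was called higher in siCtrl without siOC2 hypoxia replicate 1 (1.13) and lower without replicate 2 (-1.45), so its direction rested on which siRNA was kept.

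Some genes used to check the cell line moved in the same contrast. VIM and CD44 were called higher in siCtrl hypoxia, while KLK3 was listed at 0. VIM was 353 and 328 RPKM in siCtrl hypoxia and 30.2 and 165 RPKM in siOC2 hypoxia (log2 difference 2.26, SE 0.69, adjusted p = 0.238 in limma). CD44 was 661 and 526 RPKM against 171 and 488 RPKM (log2 difference 1.03, SE 0.44, adjusted p = 0.409 in limma). CAV1 was not called. The part of these genes in the KLF6 value was not tested.

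**Figure D3:**
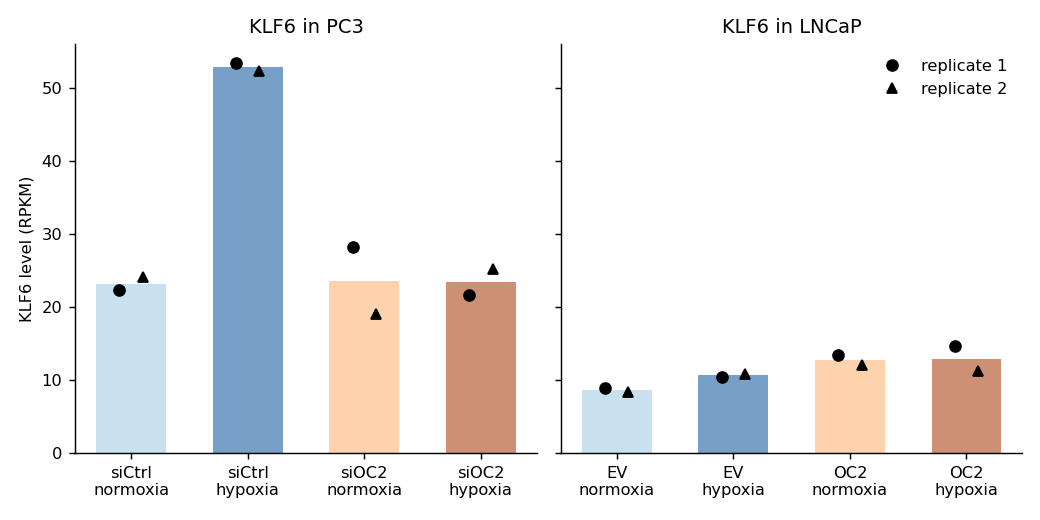
KLF6 level in RPKM (vertical axis from 0) in the 4 groups of each line (horizontal axis), with bars at the mean of 2 libraries and a symbol for each library. The siCtrl hypoxia libraries of PC3 sit at 53.3 and 52.3 RPKM, and the other PC3 libraries between 19.0 and 28.2 RPKM.

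Whether the effect of ONECUT2 differed between hypoxia and normoxia was tested by the interaction term, which 0.942% of genes passed. KLF6 was the 1 member called, at 1.17 on the log2 scale (SE 0.39, 95% interval 0.27 to 2.06, adjusted p = 0.9998 in limma), and 0 of the 12214 genes passed the adjusted p in this contrast, where 126 had an unadjusted P under 0.05. By unadjusted P KLF6 ranked 38 of 12214. The call was lost without siCtrl normoxia replicate 1 (log2 difference 1.11), without siCtrl hypoxia replicate 1 (1.15) and without siOC2 normoxia replicate 1 (0.89). The other members had values from -0.05 to 0.74 that did not pass. KLF5 passed without siOC2 hypoxia replicate 1 (1.64), and KLF4 without siOC2 normoxia replicate 1 (1.29).

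In LNCaP the same questions were asked with ONECUT2 added instead of removed, and the spread between replicates was smaller. In hypoxia over normoxia with the empty vector KLF4 and KLF7 were called among 10 members, and 7.95% of genes were called. Of the members 7 had a higher mean in hypoxia and 3 a lower mean, with a median log2 change of 0.46 against 0.02 over all genes. No member had libraries that overlapped between normoxia and hypoxia, as was the case for 69.4% of all genes.

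KLF4 was 4.36 and 3.96 RPKM in EV normoxia and 8.46 and 8.66 RPKM in EV hypoxia, and rose 2.04-fold (log2 change 1.02, SE 0.13, adjusted p = 0.000979 in limma). The fold lay close to the limit of 2, and KLF4 fell under it without EV normoxia replicate 2 (log2 change 0.96). KLF7 (chr2:207938861-208038580, minus strand, GRCh37) was 5.45 and 5.77 RPKM in EV normoxia and 15.7 and 11.1 RPKM in EV hypoxia, and rose 2.33-fold (log2 change 1.22, SE 0.22, adjusted p = 0.00470 in limma). Without EV hypoxia replicate 1 its log2 change was 0.97.

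Members below the 2-fold limit also differed. KLF5 had a log2 change of 0.91 (adjusted p = 0.0374 in limma) and passed the limit without EV normoxia replicate 2 (1.11) or EV hypoxia replicate 1 (1.05). KLF3 went from 12.9 and 11.5 RPKM to 19.6 in both hypoxia libraries, a log2 change of 0.68 (adjusted p = 0.00318 in limma), and KLF13 from 52.3 and 51.8 RPKM to 80.4 and 80.0 RPKM, a log2 change of 0.62 (adjusted p = 0.00175 in limma). KLF6 was 8.99 and 8.47 RPKM in normoxia and 10.5 and 10.9 RPKM in hypoxia. Its libraries did not overlap, and the log2 change was 0.29 (SE 0.15, 95% interval -0.04 to 0.63, adjusted p = 0.161 in limma). In control PC3 cells the KLF6 estimate was 1.18, which has an error of its own, and the lines were not tested against each other.

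With ONECUT2 overexpressed, hypoxia called KLF4 and KLF7 again, beside 6.84% of genes. KLF4 was 2.72 and 2.76 RPKM in OC2 normoxia and 7.69 and 7.15 RPKM in OC2 hypoxia (log2 change 1.40, SE 0.13, adjusted p = 0.000327 in limma). KLF7 was 3.84 and 5.72 RPKM against 10.8 and 12.1 RPKM (log2 change 1.27, SE 0.22, adjusted p = 0.00499 in limma), and had 0.99 without OC2 normoxia replicate 1. In both genes the hypoxia libraries were above the normoxia libraries. KLF3 (0.88), KLF13 (0.60) and KLF10 (0.48) had adjusted p of 0.00140, 0.00264 and 0.0127 in limma, under the 2-fold limit. KLF10, also known as a gene induced early by TGF-beta, was 15.4 and 14.7 RPKM in OC2 normoxia and 22.4 and 19.9 RPKM in OC2 hypoxia. KLF6 was 13.5 and 12.1 RPKM in OC2 normoxia and 14.7 and 11.2 RPKM in OC2 hypoxia, which overlapped, with a log2 change of 0.01 (SE 0.15). KLF5 was 11.97 and 13.4 RPKM against 13.9 and 26.3 RPKM, a log2 change of 0.59 that passed the call without OC2 hypoxia replicate 1 (1.04).

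Averaged over EV and OC2, KLF4 (log2 change 1.21, SE 0.09, adjusted p = 4.2e-05 in limma) and KLF7 (1.25, SE 0.16, adjusted p = 0.000493 in limma) were called, and they kept the call without any 1 library. For this average 6.24% of genes were called. KLF3 (0.78), KLF5 (0.75), KLF13 (0.61) and KLF10 (0.34) had an adjusted p of 0.0152 or less in limma without a 2-fold change. KLF6 (0.15), KLF11 (0.09), KLF2 (-0.05) and KLF9 (-0.14) did not pass.

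The effect of added ONECUT2 was OC2 over EV. In normoxia 0 of 10 members were called by limma, 2 had an unadjusted P under 0.05, and 3.29% of genes were called. KLF4 was 2.72 and 2.76 RPKM in OC2 against 4.36 and 3.96 RPKM in EV, without overlap, a log2 difference of -0.58 (SE 0.13, adjusted p = 0.0396 in limma) that stayed under the 2-fold limit. KLF6 was 13.5 and 12.1 RPKM in OC2 against 8.99 and 8.47 RPKM in EV, also without overlap. Its log2 difference was 0.54 (SE 0.15, 95% interval 0.21 to 0.88, adjusted p = 0.0712 in limma).

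In hypoxia KLF2 was the 1 member called with OC2, and 4.47% of genes were called. KLF2 (chr19:16435637-16439496, plus strand, GRCh37), known from quiescent endothelium, was 2.12 and 1.25 RPKM in OC2 hypoxia and 0.69 and 0.64 RPKM in EV hypoxia. The groups did not overlap, and the log2 difference was 1.18 (SE 0.29, adjusted p = 0.0376 in limma). All these levels are near the filter of 1 RPKM, and without OC2 hypoxia replicate 1 the difference was 0.82 and was not called. KLF2 passed that filter mainly through the OC2 libraries, where it was higher. KLF11, another TGF-beta-induced member, was 5.93 and 5.46 RPKM in OC2 and 4.11 and 3.37 RPKM in EV, a log2 difference of 0.60 (SE 0.15, adjusted p = 0.0426 in limma) under the 2-fold limit. KLF6 had 0.26 (SE 0.15, 95% interval -0.07 to 0.60), with 14.7 and 11.2 RPKM in OC2 above 10.5 and 10.9 RPKM in EV.

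The interaction term called 0 of 10 members by limma in LNCaP, where 1 (KLF11) had an unadjusted P under 0.05, beside 3.7% of genes called. KLF6 had -0.28 (SE 0.21, 95% interval -0.76 to 0.19), against 1.17 in PC3. The signs are set so that a positive value is a larger effect of ONECUT2 in hypoxia in both lines, and the difference between the lines was not tested. KLF2 had 0.78 (SE 0.41, adjusted p = 0.386 in limma) and was called without OC2 hypoxia replicate 2 (1.14). KLF11 had 0.55 (SE 0.22, adjusted p = 0.258 in limma).

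**Figure D4:**
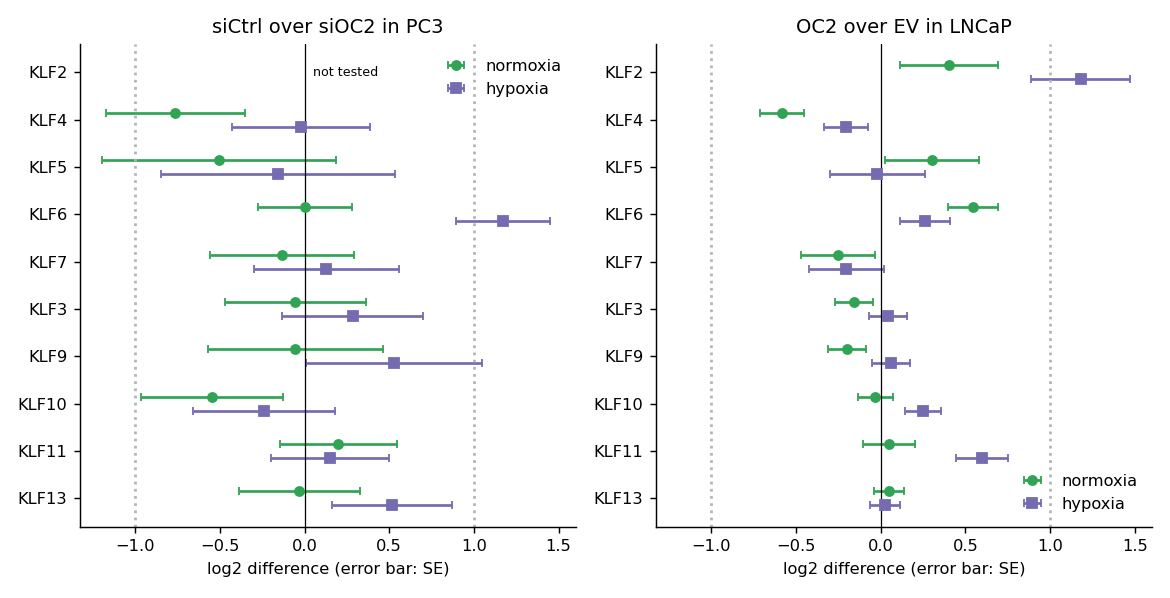
Fitted log2 difference of each member for higher over lower ONECUT2 (horizontal axis, error bars are the SE), as siCtrl over siOC2 in PC3 and OC2 over EV in LNCaP, in normoxia and hypoxia, with dotted lines at a 2-fold difference. In PC3 KLF6 is at 0.00 in normoxia and 1.17 in hypoxia, and in LNCaP KLF2 in hypoxia is at 1.18.

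KLF6 was also set against its family in each library, as its log2 level minus the mean log2 level of the other members measured, which were 8 in PC3 and 9 in LNCaP. This removes whatever moves all members of a library together. In PC3 the difference was 1.63 and 1.59 in siCtrl normoxia, 1.92 and 2.11 in siCtrl hypoxia, 1.56 and 1.18 in siOC2 normoxia and 0.97 and 1.01 in siOC2 hypoxia. The siCtrl hypoxia libraries were the highest and the siOC2 hypoxia libraries the lowest of the 8. The mean log2 level of the other members was 2.86 and 3.01 in siCtrl normoxia, 3.82 and 3.60 in siCtrl hypoxia, 3.27 and 3.07 in siOC2 normoxia and 3.48 and 3.65 in siOC2 hypoxia. The family mean was thus higher in both hypoxia groups than in the normoxia group of the same arm. KLF6 did not overlap between normoxia and hypoxia in the siCtrl arm and overlapped in the siOC2 arm. With the first siRNA the mean leans on KLF5 (log2 change 2.15). KLF4 (1.49), KLF7 (0.29) and KLF3 (0.22) were also higher in hypoxia, while KLF13 (-0.87), KLF9 (-0.83), KLF10 (-0.40) and KLF11 (-0.37) were lower. With the second siRNA all of these but KLF5 (-0.05) were higher. A mean without KLF5 was not computed.

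In LNCaP KLF6 stood closer to its family. The difference was 0.13 and 0.01 in EV normoxia, -0.12 and 0.01 in EV hypoxia, 0.80 and 0.52 in OC2 normoxia and 0.20 and -0.17 in OC2 hypoxia. The OC2 normoxia libraries were above the other 6. Those of EV normoxia lay just above those of EV hypoxia, and OC2 hypoxia overlapped both.

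**Figure D5:**
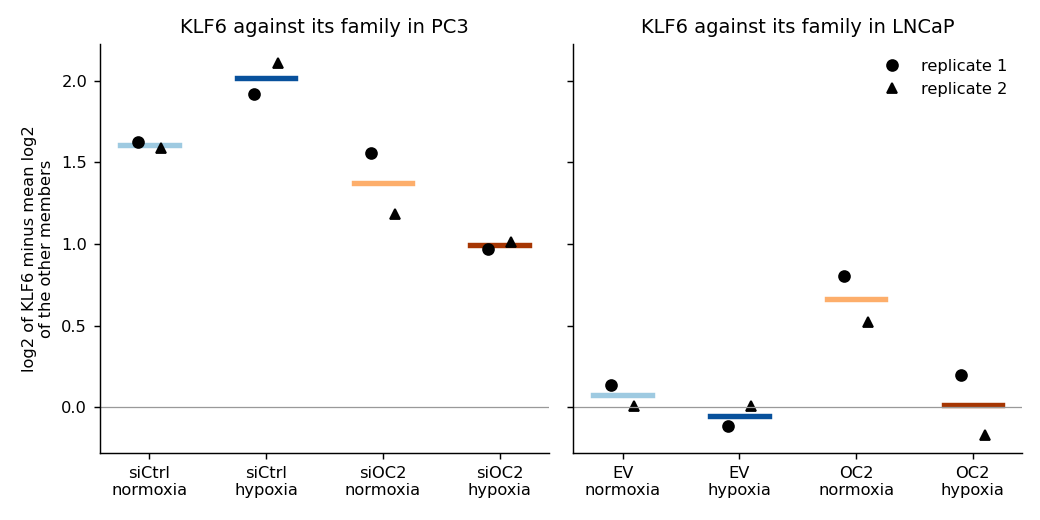
Log2 level of KLF6 minus the mean log2 level of the other members (vertical axis) in each library, by group, with a line at the group mean. In PC3 the siCtrl hypoxia libraries lie at 1.92 and 2.11 and the siOC2 hypoxia libraries at 0.97 and 1.01, and in LNCaP the OC2 normoxia libraries lie at 0.80 and 0.52.

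Relatives of the members were read from lists. Of 8 other KLF genes, 2 could be tested in PC3 and 3 in LNCaP, and 0 were called by limma in any of the 12 contrasts. Over all genes 0.942% to 7.95% were called in these contrasts, so 0 of 2 or 3 genes is near that share. Averaged over both arms, the 2 tested in PC3 had a lower mean in hypoxia (median log2 change -0.27), unlike the members. The 3 tested in LNCaP had a higher mean (median 0.18). Of 9 SP genes, close relatives with the same zinc fingers, 7 were tested in PC3 and 6 in LNCaP. SP5 was called lower in siCtrl than in siOC2 in hypoxia (log2 difference -1.34, SE 0.54, adjusted p = 0.365 in limma), from levels of 0.319 and 0.426 RPKM in siCtrl and 1.07 and 1.101 RPKM in siOC2. It reached 1 RPKM in siOC2 libraries only. SP5 thus entered the fit through the group where it was higher, and the call carries little weight. SP6 rose in EV hypoxia (log2 change 1.03, SE 0.22, adjusted p = 0.00982 in limma).

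Among 17 cofactors and ubiquitin ligases of these factors, 2 were called for ONECUT2 in PC3. Of all genes, 5.21% were called for it in normoxia and 7.5% in hypoxia. Neither of the 2 had an adjusted p under 0.05 in limma. SMURF2, a ubiquitin ligase of TGF-beta signalling, was lower in siCtrl than in siOC2 in normoxia (log2 difference -1.22, SE 0.37) and in hypoxia (-1.26, SE 0.37), with libraries at 37.2 to 60.0 RPKM in siCtrl and 74.3 to 164.0 RPKM in siOC2. FBXO32, a ubiquitin ligase of muscle atrophy, was 41.6 and 39.7 RPKM in siCtrl hypoxia and 10.9 and 18.4 RPKM in siOC2 hypoxia, a log2 difference of 1.51 (SE 0.38, adjusted p = 0.164 in limma). In LNCaP FBXO32 was 6.98 and 5.94 RPKM in OC2 hypoxia and 2.26 and 2.02 RPKM in EV hypoxia, a log2 difference of 1.55 (SE 0.16, adjusted p = 0.00136 in limma). In LNCaP normoxia FBXO32 went the other way, at 1.77 and 1.95 RPKM in OC2 and 3.06 and 3.04 RPKM in EV. In PC3 normoxia its siCtrl and siOC2 libraries overlapped. Its interaction term was called in PC3 (1.34, SE 0.53, adjusted p = 0.9998 in limma) and in LNCaP (2.23, SE 0.23, adjusted p = 0.0135 in limma). With OC2 in hypoxia FBXO32 rose by 1.74 (SE 0.16, adjusted p = 0.000337 in limma), and SIAH1 rose (log2 change 1.03, SE 0.18, adjusted p = 0.00518 in limma).

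Of 10 genes described as targets of KLF6, 9 were tested in PC3 and 7 in LNCaP. In PC3 hypoxia, where KLF6 was higher in siCtrl, 1 was called higher and 1 lower, with a median log2 difference of 0.58 against 0.03 over all genes. Of all genes, 7.5% were called in this contrast. CDKN1A, the cell cycle inhibitor p21, was the lower gene, at 9.26 and 9.93 RPKM in siCtrl hypoxia and 17.6 and 33.6 RPKM in siOC2 hypoxia (log2 difference -1.34, SE 0.35, adjusted p = 0.183 in limma). It was also lower in siCtrl in normoxia, at 6.26 and 6.98 RPKM against 20.6 and 27.6 RPKM (-1.83, SE 0.35, adjusted p = 0.167 in limma). KLF6 was not called there, and its difference took either sign (-0.28 to 0.28) when 1 library was left out. A link between KLF6 and CDKN1A was not tested. IGF1R, a growth factor receptor, was the higher gene in hypoxia, at 25.1 and 25.6 RPKM in siCtrl and 6.28 and 19.6 RPKM in siOC2 (1.18, SE 0.46, adjusted p = 0.350 in limma).

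In LNCaP TGFB1, the ligand TGF-beta 1, had the largest changes among the called genes of this list. It was 0.02 and 0.09 RPKM in EV normoxia, 4.52 and 2.94 in EV hypoxia, 0.97 and 0.99 in OC2 normoxia and 2.16 and 2.62 in OC2 hypoxia. It was called higher with OC2 in normoxia (log2 difference 2.87, SE 0.32, adjusted p = 0.00263 in limma), where its EV libraries were near 0. In hypoxia it rose with EV (4.66) and with OC2 (1.20), with adjusted p of 5.5e-05 and 0.0266 in limma. IGF1R rose in hypoxia with EV (1.48, SE 0.14, adjusted p = 0.000287 in limma), from 8.76 and 9.09 to 22.5 and 27.9 RPKM. The interaction term was called lower for TGFB1 (-3.47) and IGF1R (-1.52), with adjusted p of 0.0340 and 0.0370 in limma. CDH1 is listed at 0 in OC2 hypoxia replicate 2 and at 284 RPKM in replicate 1, so no change is given for it. CDKN1A was not called for OC2 over EV, but it was higher with OC2, unlike in PC3. It was 155 and 172 RPKM against 72.9 and 95.7 RPKM in normoxia, and 208 and 181 RPKM against 108 and 100 RPKM in hypoxia. Of the 7 targets tested, 7 had a higher mean with OC2 in normoxia, with a median log2 difference of 0.69 against -0.08 over all genes. In hypoxia 4 were higher and 3 lower, with a median of 0.56 against -0.01 over all genes. The 3 lower genes include CDH1 with its library listed at 0.

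The genes whose pattern was most like that of KLF6 were ranked by the smaller of 2 Pearson correlations on the log2 scale, over the 8 libraries of PC3 and over the 8 of LNCaP, among the 6926 genes that averaged 5 RPKM or more in each line. Among the first 5 were ANXA5, a calcium-dependent membrane protein (r = 0.89 in both lines), ITGB4, an integrin chain (0.89 in PC3 and 0.87 in LNCaP), ITPR1, a calcium channel of the endoplasmic reticulum (0.80 and 0.80) and FGFR1, a growth factor receptor (0.92 and 0.79). ITGB4 was 142 and 145 RPKM in siCtrl hypoxia and between 9.59 and 40.9 RPKM in the other PC3 libraries. Of the members ranked, KLF13 came first, at rank 277 (0.71 and 0.39), followed by KLF5 at rank 768, KLF3 at 805, KLF7 at 1238, KLF4 at 1500 and KLF10 at 1913. KLF11 (0.51 and 0.45) and KLF9 (0.74 and -0.44) averaged under 5 RPKM in a line and were not ranked. The points of these correlations share libraries, groups and depth, and the ranks are a description.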

How the data were processed

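Total RNA was extracted with RNeasy, made into TruSeq Stranded mRNA libraries and sequenced on a HiSeq2500. The authors trimmed the reads, used STAR 2.4.2a for alignment (hg19) and Cufflinks 2.1.1 for RPKM over GENCODE genes (GRCh37), and the deposited tables give RPKM per gene symbol and library. Library totals are not given in the sources used here, so no counting interval could be made. ChIP-Seq (12 samples) was left out, since the question is expression.

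A gene was kept in a line when 2 or more of its 8 libraries had 1 RPKM or more (12214 in PC3, 12283 in LNCaP). The model in limma 3.58.1 (R 4.3.3) took log2(RPKM + 0.1) over 4 groups of 2 libraries, with a trended prior, and p-values were 2-sided and adjusted by Benjamini-Hochberg over all genes tested. The pseudocount makes fold changes of low genes too small. Calls needed more than a 2-fold change together with an unadjusted P under 0.05, limits that the study gives for ONECUT2 target genes without saying which kind of P. An exact permutation test of 2 against 2 libraries cannot go below p = 0.333, so none was run. Named genes were the 10 members, called genes of the lists of relatives, cofactors, KLF6 targets and hypoxia genes, and the 5 genes most like KLF6, of which 1 is not reported here. Members and lists were chosen with earlier results of these data known. Gene positions came from a GENCODE annotation of GRCh37, and promoter windows from RefSeq on GRCh38.p14. Alternatives were other pseudocounts, filters, scalings, sample sets, calls by adjusted p, a replicate block and leaving out each library.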

Additional observations from a re-analysis of the deposited data

Results flagged for a closer look

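The effect of ONECUT2 on KLF6 in PC3 differed between hypoxia and normoxia by the interaction term of limma, at 1.1683 on the log2 scale (adjusted p = 0.9998 in limma). The siCtrl over siOC2 difference was 0.00 in normoxia and 1.17 in hypoxia. It does not pass the adjusted p, and its call was lost in 3 of the 8 fits without 1 library.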

How the results depend on the processing

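Of 194 counts of members called under another setting, 164 were within 1.5 times the main count, and of 1714 changes of single members 1589 kept direction and side of the limits, 24 lost the call, 17 gained it and 84 changed sign. With the adjusted p for calls the count became 0 in the PC3 contrasts that had any (siCtrl over siOC2 in hypoxia, hypoxia in siCtrl, in siOC2 and averaged, and the interaction). A pseudocount of 1 gave 0 for hypoxia in siOC2, 0 for OC2 over EV in hypoxia and 1 for hypoxia in EV. Fitting only the groups compared gave 0 for hypoxia in siOC2. The average over siCtrl and siOC2 had 1 with no filter, with upper-quartile scaling and with relative depth as a covariate, a setting chosen after seeing the data. A filter of 5 RPKM gave 0 for OC2 over EV in hypoxia, since KLF2 was then untested, and upper-quartile scaling 1 for hypoxia in EV, where KLF4 fell to 0.99. That scaling moved the median of all genes by 0.13 in hypoxia in siOC2 and by -0.16 in the PC3 interaction, where KLF6 was 1.00. Leaving out 1 library at a time, members called ranged from 0 to 1 for siCtrl over siOC2 in normoxia, 1 to 2 for it in hypoxia, 2 to 3 for hypoxia in siCtrl, 1 to 2 for hypoxia in siOC2 and for the average, 0 to 2 for the PC3 interaction, 0 to 1 for OC2 over EV in hypoxia, 1 to 3 for hypoxia in OC2 and 0 to 1 for the LNCaP interaction. Values of some members took either sign when 1 library was left out, given as the lowest to the highest log2 value. For siCtrl over siOC2 in normoxia this held for KLF11 (-0.12 to 0.52), KLF13 (-0.50 to 0.44), KLF3 (-0.33 to 0.22), KLF7 (-0.74 to 0.47), KLF6 (-0.28 to 0.28) and KLF9 (-0.31 to 0.20). For siCtrl over siOC2 in hypoxia this held for KLF4 (-0.25 to 0.20), KLF5 (-1.45 to 1.13), KLF11 (-0.069 to 0.37), KLF3 (-0.28 to 0.84), KLF10 (-0.86 to 0.38) and KLF7 (-0.12 to 0.38). For hypoxia in siCtrl this held for KLF11 (-0.10 to 0.34). For hypoxia in siOC2 this held for KLF13 (-0.67 to 0.27), KLF9 (-0.58 to 0.25), KLF10 (-0.65 to 0.59), KLF11 (-0.15 to 0.49), KLF6 (-0.27 to 0.30), KLF5 (-0.24 to 2.34) and KLF3 (-0.048 to 1.07). For the PC3 average this held for KLF13 (-0.16 to 0.31), KLF11 (-0.015 to 0.31), KLF9 (-0.083 to 0.33) and KLF10 (-0.18 to 0.44). For the PC3 interaction this held for KLF11 (-0.37 to 0.27), KLF7 (-0.34 to 0.87), KLF10 (-0.31 to 0.93), KLF3 (-0.22 to 0.90) and KLF5 (-0.94 to 1.64). For OC2 over EV in normoxia this held for KLF7 (-0.53 to 0.028), KLF10 (-0.066 to 0.0029) and KLF11 (-0.041 to 0.14). For OC2 over EV in hypoxia this held for KLF7 (-0.45 to 0.049), KLF5 (-0.48 to 0.44), KLF9 (-0.015 to 0.13) and KLF13 (-0.037 to 0.090). For hypoxia in OC2 this held for KLF9 (-0.074 to 0.062), KLF6 (-0.19 to 0.20) and KLF2 (-0.021 to 0.70). For the LNCaP average this held for KLF2 (-0.23 to 0.13). For the LNCaP interaction this held for KLF7 (-0.23 to 0.33), KLF5 (-0.78 to 0.14) and KLF13 (-0.085 to 0.042). Upper-quartile scaling reversed KLF13 (0.070), KLF3 (0.043) and KLF9 (0.037) for siCtrl over siOC2 in normoxia, KLF10 (0.11) for hypoxia in siOC2, KLF10 (0.046) for OC2 over EV in normoxia, KLF5 (0.037) for OC2 over EV in hypoxia and KLF6 (-0.047) for hypoxia in OC2. Relative depth as a covariate reversed KLF13 (0.17), KLF3 (0.20) and KLF9 (0.065) for siCtrl over siOC2 in normoxia, KLF10 (0.25) and KLF13 (0.074) for hypoxia in siOC2, KLF6 (-0.021) for hypoxia in OC2 and KLF7 (-0.002) for the LNCaP interaction. A pseudocount of 1 reversed KLF2 (0.0012) for the LNCaP average. The causes were not tested.

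For KLF6 against its family, a pseudocount of 1 gave 1.39 in siCtrl normoxia, 1.86 in siCtrl hypoxia, 0.83 in siOC2 hypoxia, -0.017 in EV normoxia and -0.16 in EV hypoxia. The median of the other members, chosen after seeing the data, gave 2.26 in siCtrl hypoxia, 1.07 in siOC2 hypoxia, -0.21 in EV normoxia, -0.50 in EV hypoxia and 0.22 in OC2 normoxia.

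With a replicate block, members called were 3 for hypoxia in siCtrl, where KLF5 was added, and the block changed no other count of members. Deviations of same-numbered libraries correlated at 0.618 between siOC2 normoxia and siOC2 hypoxia, which share an siRNA. They correlated at -0.186 between siCtrl normoxia and siCtrl hypoxia and at 0.275 or less in LNCaP. The number thus paired the siOC2 libraries, where it names the siRNA, and the main fit did not use this pairing. No correlation between other groups was as high. A crossed block in PC3, chosen after seeing the data, called the same numbers of members as the block.

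Depth is known only in relative terms, so low levels such as those of KLF2 and KLF9 in PC3 have no counting error. In siOC2 the siRNA sequence and the replicate cannot be told apart.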
